A study of Homo sapiens with 4 samples.

Results

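Nucleotide synthesis was examined in Kasumi-1 cells, a line derived from acute myeloid leukemia, as 40 enzymes fixed by name: 18 of the purine arm, 8 of the pyrimidine arm, 12 of the deoxynucleotide (dNTP) arm and 2 nucleoside diphosphate kinases shared by all arms. Of the 40 genes, 39 were analysed among the 18567 genes of the deposited table, and all 39 passed the requirement of at least 1 TPM in at least 2 of the 4 samples. CTPS2, an isozyme of CTP synthase, was not analysed here. RNA was sequenced from 2 control samples, called NC, and from 2 samples with short hairpin RNA (shRNA) knockdown of ANP32B (sh-ANP32B). In the labels the NC samples stand as untreated with no shRNA, whereas the methods of the study describe an sh-NC control, lentiviral infection and puromycin selection. Which of these the NC samples carried, and which of the study's ANP32B hairpins each sh-ANP32B sample carried, was not given in the labels. The methods describe the experiments in general as repeated independently, but nothing says that these replicates came from separate cultures, so the p-values measure the spread between these samples, which may be technical.

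Cells make purine nucleotides by building the ring on phosphoribosyl pyrophosphate (PRPP), and make pyrimidine nucleotides by forming the ring first and adding the ribose phosphate afterwards. Ribonucleotide reductase then turns ribonucleotides into deoxynucleotides, and thymidylate synthase supplies the thymine nucleotide used only in DNA. Salvage enzymes recover bases and nucleosides instead, and many of the enzymes are made most strongly in dividing cells, in which MYC and E2F factors are known to act on their genes. In leukemia these steps are the targets of antifolates, hydroxyurea and mercaptopurine, and a salvage kinase activates cytarabine.

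TPM is a share of the transcripts of a sample, scaled for transcript length, so levels can be compared between genes. The depth of the samples is unknown. Values are given in the order of replicates 1 and 2, with NC as the controls. The knockdown target ANP32B had 384 and 392 TPM (NC) against 51.8 and 41.2 TPM (sh-ANP32B). Its log2 fold change (log2FC, sh-ANP32B minus NC on the log2(TPM + 1) scale used throughout) was -3.04, with an SE of 0.150 and a limma adjusted p of 0.00516. MYC, a transcription factor that the study followed, fell by 1.18 on that scale (limma adjusted p 0.0261). Of 8 markers of Kasumi-1 and myeloid blasts 6 were analysed. CD33 had 58.5 to 70.1 TPM over the 4 samples, and KIT, a receptor gene known to be mutated in this line, 1.55 to 3.41 TPM. RUNX1T1, the partner in the fusion gene of this line, had 17.6 and 15.6 TPM in the controls and 31.2 and 26.8 TPM after knockdown. RUNX1T1 and ELANE passed the study's criterion (an unadjusted p under 0.05 and a log2FC beyond 0.5 in size) as higher and CD38 as lower, with log2FCs of 0.77, 0.62 and -0.72, and AZU1 was at 0.44. None of the 6 had a limma adjusted p under 0.05. Among markers of other cell types, CD79A of B cells had at most 2.17 TPM. Mitochondrial transcripts made up 12.9% and 13.1% of the NC values but 11.4% and 8.43% of the sh-ANP32B values.

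The promoters of 6 members are shown, because their genes fell past the adjusted test (CTPS1, RRM1 and TYMS), act beside those (RRM2, DUT) or stand back to back (PPAT, with PAICS). The sequences are from RefSeq (GRCh38.p14, an hg38 build), each of 300 bases on the strand of the gene, from 250 bases before the start site to 50 after it. Capitals mark, on either strand, the GC box GGGCGG in CTPS1, the E2F letters TTTCCCGC, TTTCGCGC, TTTGCCGC or TTTGGCGC in TYMS and DUT, the CCAAT box in RRM1 and RRM2, and the E-box CACGTG, the motif of MYC, in PPAT. Where a gene has several start sites in RefSeq, the window with most matches is given.
CTPS1, chr1:40979446-40979745, plus strand: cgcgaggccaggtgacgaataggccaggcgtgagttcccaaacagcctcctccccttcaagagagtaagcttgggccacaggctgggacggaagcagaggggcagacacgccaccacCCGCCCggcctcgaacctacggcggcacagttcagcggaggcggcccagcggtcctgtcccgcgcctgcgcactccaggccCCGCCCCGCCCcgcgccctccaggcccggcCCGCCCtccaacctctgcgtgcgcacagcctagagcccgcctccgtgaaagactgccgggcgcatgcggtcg
TYMS, chr18:657403-657702, plus strand: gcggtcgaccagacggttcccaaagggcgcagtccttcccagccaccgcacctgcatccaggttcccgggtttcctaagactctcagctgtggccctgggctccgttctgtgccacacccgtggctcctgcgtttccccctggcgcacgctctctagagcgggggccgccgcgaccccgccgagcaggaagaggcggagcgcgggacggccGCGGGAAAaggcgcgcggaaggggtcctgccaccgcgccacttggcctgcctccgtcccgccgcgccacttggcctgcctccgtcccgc
DUT, chr15:48331947-48332246, plus strand: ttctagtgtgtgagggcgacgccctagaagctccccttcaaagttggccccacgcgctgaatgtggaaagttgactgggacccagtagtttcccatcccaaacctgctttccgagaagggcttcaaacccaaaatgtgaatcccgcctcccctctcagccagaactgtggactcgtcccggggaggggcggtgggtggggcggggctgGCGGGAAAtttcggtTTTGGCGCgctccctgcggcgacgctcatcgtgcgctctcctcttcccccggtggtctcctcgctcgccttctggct
RRM1, chr11:4094435-4094734, plus strand: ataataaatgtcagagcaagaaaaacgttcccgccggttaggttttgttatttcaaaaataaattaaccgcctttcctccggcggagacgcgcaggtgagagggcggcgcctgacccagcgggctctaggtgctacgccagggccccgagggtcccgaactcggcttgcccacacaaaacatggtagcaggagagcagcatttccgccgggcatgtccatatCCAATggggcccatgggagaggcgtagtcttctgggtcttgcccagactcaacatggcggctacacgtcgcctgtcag
RRM2, chr2:10122489-10122788, plus strand: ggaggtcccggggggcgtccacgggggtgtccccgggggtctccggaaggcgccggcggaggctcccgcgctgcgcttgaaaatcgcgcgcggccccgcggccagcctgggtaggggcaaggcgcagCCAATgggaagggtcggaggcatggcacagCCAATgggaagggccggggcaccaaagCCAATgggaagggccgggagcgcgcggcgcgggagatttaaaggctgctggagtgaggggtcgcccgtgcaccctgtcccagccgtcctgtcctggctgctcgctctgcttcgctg
PPAT, chr4:56435566-56435865, minus strand: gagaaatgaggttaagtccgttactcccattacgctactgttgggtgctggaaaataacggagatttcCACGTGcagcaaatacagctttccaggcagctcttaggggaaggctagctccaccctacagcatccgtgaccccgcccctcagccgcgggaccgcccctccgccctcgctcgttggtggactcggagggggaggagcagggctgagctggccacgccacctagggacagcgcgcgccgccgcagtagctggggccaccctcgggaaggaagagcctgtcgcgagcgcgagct

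CTPS1 held 4 GC boxes, of which a neighbouring pair overlap, and RRM2 held 3 copies of CCAAT. DUT, which makes the precursor of thymidylate and removes dUTP, held 2 matches of the E2F letters, and TYMS held 1, at positions -39 to -32 from its start. PPAT and PAICS lie on opposite strands of chromosome 4 with annotated starts 126 bases apart, and the same CACGTG stands at positions -182 to -177 from the RefSeq start of PPAT and at 40 to 45 from that of PAICS. Windows were found for 37 members. The E2F letters occurred in windows of 5 of them (TYMS, DUT, DCK, GART and PRPS2), the E-box in 8 (PPAT, PAICS, ATIC, DHODH, DCK, DCTPP1, NUDT1 and NME1), the CCAAT box in 15 and the GC box in 32. Counted by window, because a gene can have several, 9.26% of the 54 member windows and 3.31% of all 35116 windows held the E2F letters. For the E-box these shares were 14.8% and 7.26%, for the CCAAT box 35.2% and 34.6%, and for the GC box 74.1% and 45%. Of the 5 members with the E2F letters, TYMS fell past the adjusted test, and DUT and GART passed only the study's criterion as lower. PRPS2 and DCK passed neither. CTPS1 and RRM1, which also fell past the adjusted test, held neither the E2F letters nor the E-box. The relation of the motifs to the changes was not tested. A match is a run of letters and no measure of binding.

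With knockdown of ANP32B most nucleotide synthesis genes lay lower, and the falls that passed the test were those of CTP synthase, thymidylate synthase and the large subunit of ribonucleotide reductase. Of the 39 members 33 had a negative log2FC and 6 a positive one, whereas 42.1% of all 16817 genes tested had a negative one. CTPS1, RRM1 and TYMS fell with a limma adjusted p under 0.05, which is 3 of 39 members, where 1.18% of all genes were called lower. No member was called higher (0 of 39 by limma, against 2.14% of all genes). An unadjusted limma p under 0.05 was reached by 2 higher members, IMPDH1 and CMPK1, and by 21 lower ones. Over all 16817 genes 3995 reached it, higher and lower together. Under the study's criterion 17 members were lower and 0 higher, where 6.55% of all genes were lower and 12.1% higher. Both sh-ANP32B values lay below both NC values in 28 members, against 21.4% of all genes, and above them in 4, against 33.2%. The median log2FC of the 39 members was -0.47, beside 0.08 for all genes tested.

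The number of called members rested on the model and on single libraries, as did the number over all genes. With a replicate left out, log2FCs were -1.11 to -0.98 for CTPS1, -0.99 to -0.72 for RRM1 and -1.04 to -0.71 for TYMS. The calls of these genes were lost without NC replicate 1 and also without NC replicate 2. Those fits hold a lone sample in a group, which is assumed to vary like the other group. After correction for GC content 19 members were called lower, against 6.54% of all genes, and 2 higher, against 11.4% of all genes. Without limma's abundance trend 0 members were called, as were 0 of all 16817 genes, ANP32B included (limma adjusted p 0.0929).

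**Figure D1:**
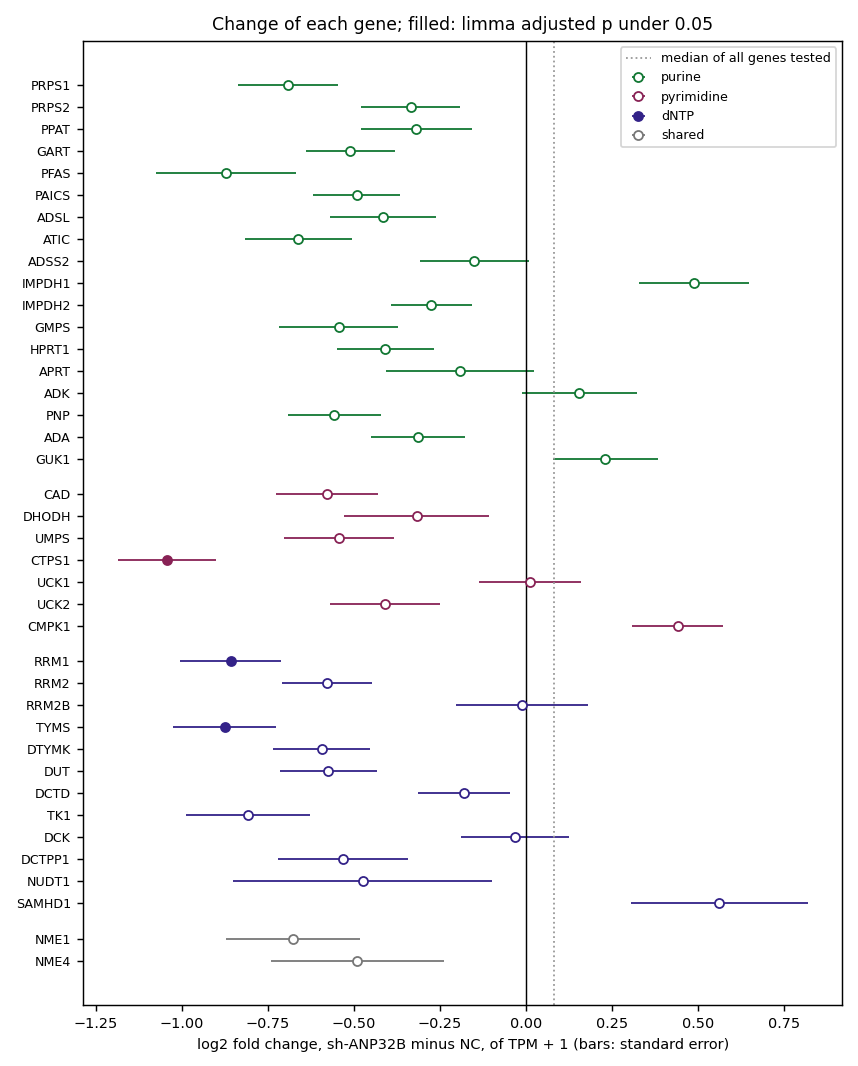
Log2 fold change (sh-ANP32B minus NC, TPM + 1; horizontal axis) of the 39 members with their standard errors, coloured by arm; filled points have a limma adjusted p under 0.05. CTPS1, RRM1 and TYMS are filled, 33 points lie left of 0, and IMPDH1, CMPK1 and SAMHD1 lie farthest to the right.

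In the dNTP arm 11 of 12 members had a negative log2FC, the median was -0.55, 2 were called lower (1.18% of all genes) and 7 passed the study's criterion, all lower (6.55% of all genes). RRM1, the catalytic large subunit of ribonucleotide reductase, is annotated in hg38 at chr11:4094707-4138932, plus strand. It had 172 and 189 TPM in the controls and 109 and 90.0 TPM after knockdown. Group means were 180 ± 11.5 and 99.4 ± 13.4 TPM (n = 2 each, ± SD), or 55.1% of NC, with a log2FC of -0.86 (limma adjusted p 0.0431, SE 0.146). RRM2, the small subunit that carries the radical and is made in S phase, had 181 and 195 TPM (NC) against 133 and 119 TPM (sh-ANP32B). The groups of RRM2 did not overlap, and its log2FC of -0.58 (SE 0.131) had a limma adjusted p of 0.0642 (0.0479 under median-of-ratios scaling). RRM2B, the p53-induced small subunit that serves DNA repair, had 23.6 and 24.6 TPM in the controls and 27.7 and 20.6 TPM after knockdown. Its groups overlapped (log2FC -0.01, SE 0.191, limma adjusted p 0.984), and the sign turned after GC correction.

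The route to dTTP lay lower in all its 4 members. TYMS, thymidylate synthase, is annotated at chr18:657653-673578, plus strand, and had 249.6 and 259 TPM (NC) against 123 and 155 TPM (sh-ANP32B). Group means were 254 ± 6.69 and 139 ± 22.4 TPM (n = 2 each, ± SD), or 54.7% of NC, with a log2FC of -0.88 (limma adjusted p 0.0431, SE 0.149). ENOSF1 and the antisense RNA TYMSOS overlap TYMS on the opposite strand, and as the use of strand in the counting was not given, reads of these genes cannot be told apart. DTYMK, which phosphorylates thymidylate, had 84.3 and 73.8 TPM in the controls and 52.7 and 51.1 TPM after knockdown. DUT had 147 and 161 TPM (NC) against 95.6 and 111 TPM (sh-ANP32B). Both passed the study's criterion, with log2FCs of -0.59 and -0.57 and limma adjusted p of 0.0715 and 0.0744, and processed pseudogene copies of DUT are annotated, with which reads can be shared. Among further members, GART overlaps SON, PFAS overlaps CTC1 and UCK2 overlaps TMCO1, and pseudogene copies of PRPS1, IMPDH1 and GMPS are annotated, so their values hold the same uncertainty. DCK overlaps MOB1B, ADSL overlaps SGSM3 and NME4 overlaps DECR2 on the same strand, which counting by strand would not separate. DCTD, the dCMP deaminase, differed less, with 72.7 and 78.8 TPM in the controls, 67.6 and 65.9 TPM after knockdown and a log2FC of -0.18 (limma adjusted p 0.463).

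The salvage kinases of deoxynucleosides differed. TK1, the thymidine kinase of S phase, had 97.1 and 97.0 TPM in the controls and 46.8 and 64.6 TPM after knockdown, with a log2FC of -0.81 (limma adjusted p 0.0612, SE 0.179) that passed the study's criterion. DCK, the deoxycytidine kinase that activates cytarabine, had 93.4 and 109 TPM (NC) against 109 and 89.5 TPM (sh-ANP32B), so that the groups covered the same range. Its log2FC was -0.03 (limma adjusted p 0.929, SE 0.157), and the sign turned after GC correction.

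Of the enzymes that clear the dNTP pool, DCTPP1, which hydrolyses dCTP and its modified forms, had 48.6 and 42.7 TPM in the controls and 26.9 and 36.3 TPM after knockdown. It passed the study's criterion with a log2FC of -0.53 (limma adjusted p 0.158), which was -0.32 without sh-ANP32B replicate 1. NUDT1, which removes oxidised purine nucleotides, had 52.1 and 55.0 TPM (NC) against 24.2 and 60.1 TPM (sh-ANP32B). The sh-ANP32B values stood on both sides of NC, and the log2FC of -0.47 had an SE of 0.376 and was 0.16 without sh-ANP32B replicate 1 and -1.11 without replicate 2. SAMHD1, the dNTP hydrolase of myeloid cells, was the least abundant member, with 4.97 and 7.88 TPM in the controls and 10.3 and 9.21 TPM after knockdown. It was the member with the largest positive log2FC, 0.56 (limma adjusted p 0.245, SE 0.257), which did not pass the test and was 0.28 without NC replicate 1 and 0.85 without NC replicate 2.

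**Figure D2:**
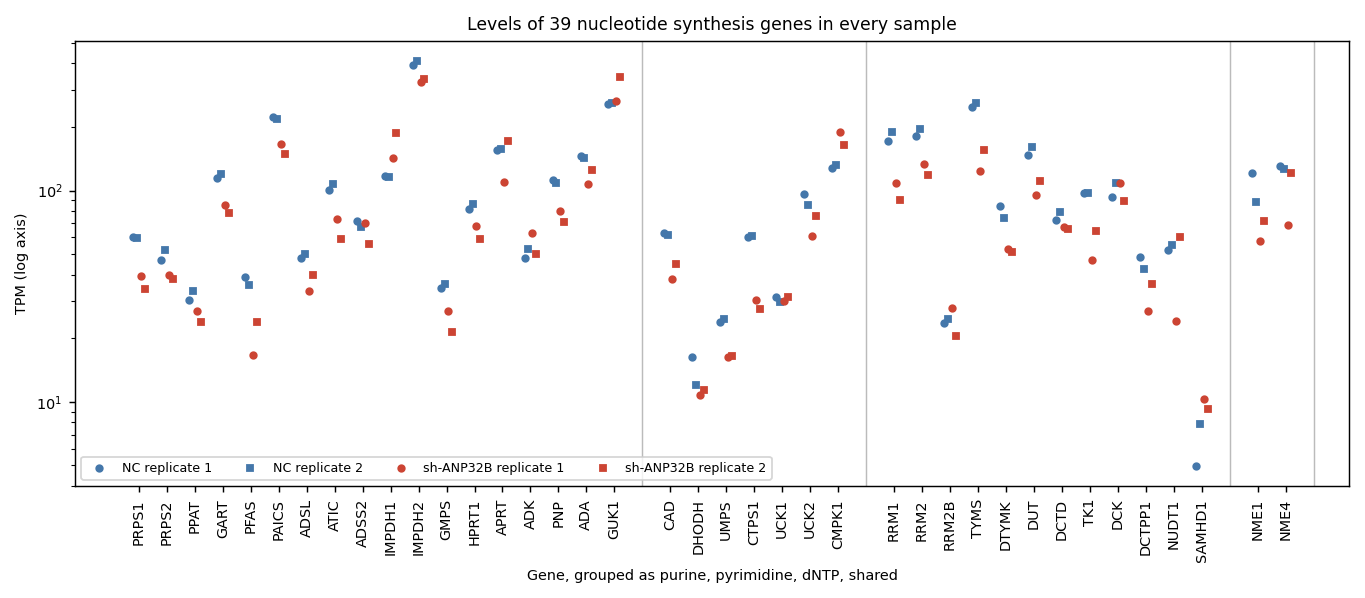
TPM of the 39 members in each of the 4 samples on a log axis, grouped as purine, pyrimidine, dNTP and shared genes; blue marks are NC, red marks sh-ANP32B, circles replicate 1 and squares replicate 2. The level runs from 4.97 TPM for SAMHD1 to 411 TPM for IMPDH2, and red marks lie below blue ones in 28 members.

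In the pyrimidine arm 7 of 8 members were tested, 5 had a negative log2FC, and the median was -0.41. All 4 members tested of the de novo route lay below NC without overlap, as 21.4% of all genes did, with CTPS1 lowest. CTPS1, which turns UTP into CTP, is annotated at chr1:40979300-41012565, plus strand. It had 60.5 and 60.8 TPM (NC) against 30.3 and 27.7 TPM (sh-ANP32B). Group means were 60.7 ± 0.204 and 29.0 ± 1.87 TPM (n = 2 each, ± SD), or 47.8% of NC, with a log2FC of -1.04 (limma adjusted p 0.0323, SE 0.143), the largest in size among the members.

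Upstream of CTPS1 the differences were smaller. CAD, the enzyme of the first steps of the route, had 62.8 and 61.8 TPM in the controls and 38.1 and 44.9 TPM after knockdown (log2FC -0.58, SE 0.149, limma adjusted p 0.0822). UMPS, which completes UMP, had 23.8 and 24.6 TPM in the controls and 16.2 and 16.4 TPM after knockdown (log2FC -0.54, SE 0.160, limma adjusted p 0.110). CAD and UMPS passed the study's criterion but not the adjusted test. DHODH, the mitochondrial dihydroorotate dehydrogenase, had 16.3 and 12.0 TPM in the controls and 10.8 and 11.4 TPM after knockdown, a log2FC of -0.32 that was smaller in size than the gap between its NC replicates (limma adjusted p 0.414, SE 0.211). It was -0.11 without NC replicate 1 and -0.52 without NC replicate 2.

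The kinases of the pyrimidine arm differed in sign. UCK2, the uridine-cytidine kinase of growing cells, had 96.6 and 85.0 TPM in the controls and 61.1 and 75.7 TPM after knockdown (log2FC -0.41, limma adjusted p 0.188). Its isozyme UCK1 had 31.4 and 29.7 TPM in the controls and 30.1 and 31.4 TPM after knockdown, a log2FC of 0.01 (SE 0.149) whose sign turned under median-of-ratios scaling, GC correction and removal of mitochondrial genes. CMPK1, which makes CDP and UDP from their monophosphates, had 127 and 132 TPM (NC) against 189 and 165 TPM (sh-ANP32B). Both sh-ANP32B values of CMPK1 exceeded NC, with a log2FC of 0.44 (SE 0.132) and a limma adjusted p of 0.113 (0.0124 once corrected for GC content).

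In the purine arm 15 of 18 members had a negative log2FC, with a median of -0.37. None of the 18 was called by limma (0 lower and 0 higher), and 6 passed the study's criterion, all lower, against 6.55% of all genes. All 6 enzymes of the de novo route lay below NC without overlap, against 21.4% of all genes, with log2FCs from -0.87 to -0.32. PFAS, which makes the amidine of the growing ring, was lowest with 39.1 and 35.8 TPM in the controls and 16.7 and 23.8 TPM after knockdown (limma adjusted p 0.0692, SE 0.204). ATIC, the enzyme that closes the ring, had 101 and 108 TPM in the controls and 73.1 and 58.8 TPM after knockdown (log2FC -0.66, SE 0.155, limma adjusted p 0.0699). GART, which holds several activities of the route, had 115 and 119 TPM in the controls and 85.2 and 78.7 TPM after knockdown (log2FC -0.51, limma adjusted p 0.0799). These were the de novo members past the study's criterion.

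The back-to-back neighbours PAICS and PPAT did not pass it. PAICS had 224 and 219 TPM (NC) against 165 and 149 TPM (sh-ANP32B), with a log2FC of -0.49 (limma adjusted p 0.0809, SE 0.125). PPAT, the amidotransferase of the committed step, had 30.3 and 33.5 TPM in the controls and 27.1 and 23.8 TPM after knockdown, with a log2FC of -0.32 (limma adjusted p 0.287, SE 0.161). The TPM of PPAT was between 0.135 and 0.164 of that of PAICS in the 4 samples. ADSL, which acts in both the route and the AMP branch, had a log2FC of -0.41 (limma adjusted p 0.173), with 48.1 and 50.2 TPM (NC) against 33.5 and 39.9 TPM (sh-ANP32B).

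PRPP supply lay lower in both isozymes. PRPS1 had 60.2 and 59.6 TPM in the controls and 39.2 and 34.4 TPM after knockdown, a log2FC of -0.69 (SE 0.145) with a limma adjusted p of 0.0565 (0.0456 under median-of-ratios scaling). PRPS2 had 46.9 and 52.4 TPM (NC) against 39.9 and 38.3 TPM (sh-ANP32B), a log2FC of -0.33 (limma adjusted p 0.224, SE 0.145). Neither overlapped between the groups.

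At the branch to GMP the isozymes of IMP dehydrogenase differed in sign. IMPDH2, the isozyme of dividing cells and the most abundant member, had 393 and 411 TPM in the controls and 326 and 338 TPM after knockdown (log2FC -0.27, SE 0.117, limma adjusted p 0.220). IMPDH1 had 117 and 116 TPM in the controls and 143 and 187 TPM after knockdown (log2FC 0.49, SE 0.161, limma adjusted p 0.134, and 0.0281 after GC correction), and the log2FC was 0.29 without sh-ANP32B replicate 2. GMPS, which follows both, had 34.5 and 36.2 TPM in the controls and 26.8 and 21.3 TPM after knockdown, and passed the study's criterion with a log2FC of -0.54 (limma adjusted p 0.125). GUK1, which phosphorylates GMP, had 256 and 259 TPM in the controls and 267 and 344 TPM after knockdown (log2FC 0.23, limma adjusted p 0.410). Without sh-ANP32B replicate 2 the log2FC of GUK1 was 0.049, and without replicate 1 it was 0.41. ADSS2, on the AMP branch, had 71.8 and 67.5 TPM in the controls and 70.2 and 56.0 TPM after knockdown, with overlapping groups.

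Among the purine salvage genes PNP, which splits purine nucleosides, had 113 and 109 TPM (NC) against 79.8 and 70.6 TPM (sh-ANP32B), and passed the study's criterion with a log2FC of -0.56 (limma adjusted p 0.0736, SE 0.135). HPRT1, the enzyme that activates mercaptopurine, had 82.3 and 86.8 TPM in the controls and 67.9 and 59.2 TPM after knockdown (log2FC -0.41, limma adjusted p 0.147). ADA, which deaminates adenosine, had 146 and 142 TPM in the controls and 107 and 125 TPM after knockdown (log2FC -0.31, limma adjusted p 0.224). The sh-ANP32B values of these genes lay below NC without overlap. APRT had 156 and 158 TPM in the controls and 109 and 172 TPM after knockdown, and ADK had 47.9 and 53.0 TPM (NC) against 63.3 and 50.0 TPM (sh-ANP32B), so that both overlapped.

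The nucleoside diphosphate kinases, which make triphosphates in all arms, both lay below NC. NME1 had 121 and 88.7 TPM in the controls and 58.0 and 71.8 TPM after knockdown, and passed the study's criterion with a log2FC of -0.68 (limma adjusted p 0.104, SE 0.195). The read-through gene NME1-NME2 spans NME1 on the same strand, so the value of NME1 is uncertain. NME4, the mitochondrial form, had 131 and 126 TPM (NC) against 69.0 and 121 TPM (sh-ANP32B), with a log2FC of -0.49 (limma adjusted p 0.291, SE 0.251). It was -0.091 without sh-ANP32B replicate 1 and -0.89 without replicate 2.

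The arms had medians of -0.55 for dNTP, -0.41 for pyrimidine and -0.37 for purine genes, beside 0.08 for all genes tested. The order depended on the library. Measured against the NC mean, the medians were -0.63, -0.55 and -0.40 in sh-ANP32B replicate 1 and -0.39, -0.28 and -0.39 in replicate 2. The difference between arms was not tested, because members of an arm share their samples and are no replicates.

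A ratio of TPM between genes within a sample does not move with the scaling of that sample. The log2 differences given are of TPM + 1 and can move with it. Both can move with GC content. This was 61.9% in IMPDH1 and 53.4% in IMPDH2, 58.0% in UCK1 and 49.7% in UCK2, and 53.7% in ADA and 41.4% in ADK. Over the alternative settings the log2 differences ranged from -0.77 to -0.65 for IMPDH2 to IMPDH1 and from -0.43 to -0.31 for UCK2 to UCK1. For ADK to ADA they ranged from 0.47 to 0.57. The ratio of RRM2 to RRM2B was 7.69 and 7.92 in NC and 4.79 and 5.77 in sh-ANP32B, a difference of -0.57 on the log2 scale. IMPDH2 to IMPDH1 was 3.37 and 3.54 in NC and 2.28 and 1.80 in sh-ANP32B, a log2 difference of -0.76. For UCK2 to UCK1 the ratio was 3.08 and 2.87 in NC and 2.03 and 2.41 in sh-ANP32B, and for PRPS1 to PRPS2 it was 1.28 and 1.14 in NC and 0.982 and 0.897 in sh-ANP32B. In these 4 pairs the isozyme named first held a smaller share in both sh-ANP32B samples than in either NC sample. RRM2 to SAMHD1, the making of dNTPs against their breakdown, was 36.5 and 24.7 in NC and 12.9 and 12.9 in sh-ANP32B, a log2 difference of -1.14. ADK to ADA was 0.328 and 0.373 in NC and 0.591 and 0.399 in sh-ANP32B. PPAT to PAICS was 0.135 and 0.153 in NC and 0.164 and 0.159 in sh-ANP32B, and NME1 to NME4 overlapped between the groups. Of these 8 pairs 7 did not overlap. Among all single genes 21.4% lay lower and 33.2% higher without overlap, and the share over other pairs of genes was not computed. Each of the 7 had an exact permutation p of 0.33 (two-sided), the smallest that 2 samples against 2 allow. The exact permutation p of NME1 to NME4 was 0.667.

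**Figure D3:**
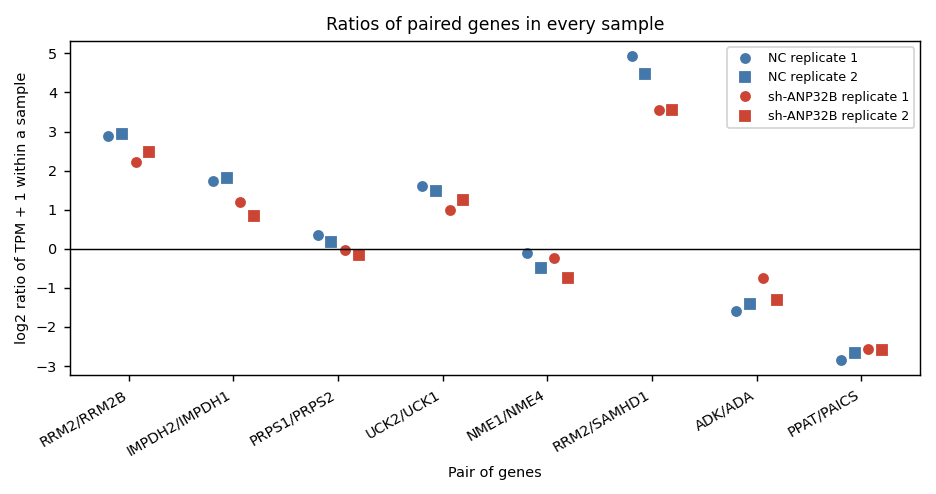
Log2 ratio of TPM + 1 between paired genes within each sample; blue marks are NC, red marks sh-ANP32B, circles replicate 1 and squares replicate 2. Red marks lie below blue ones for RRM2/RRM2B, IMPDH2/IMPDH1, PRPS1/PRPS2, UCK2/UCK1 and RRM2/SAMHD1, above them for ADK/ADA and PPAT/PAICS, and overlap for NME1/NME4.

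The replicates of sh-ANP32B differed along GC content, and the members did so with the other genes. The log2 difference between sh-ANP32B replicates 2 and 1 had a Spearman rho of 0.83 with the GC content of the longest transcript across 39 members and of 0.58 across 15427 genes, whereas between the NC replicates rho was -0.48 across the members. These are descriptions across genes of the same libraries. NUDT1, NME4 and APRT, at 58.7%, 60.6% and 63.2% GC, were the members whose sh-ANP32B replicates lay over 1.5 times apart, each higher in replicate 2, and SAMHD1 was the member whose NC replicates did. The median absolute log2 difference between replicates was 0.077 in NC and 0.230 in sh-ANP32B across the 39 members. The GC-corrected log2FCs of CTPS1, RRM1 and TYMS were -0.97, -0.78 and -0.84, with limma adjusted p of 0.00614, 0.00641 and 0.0119.

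**Figure D4:**
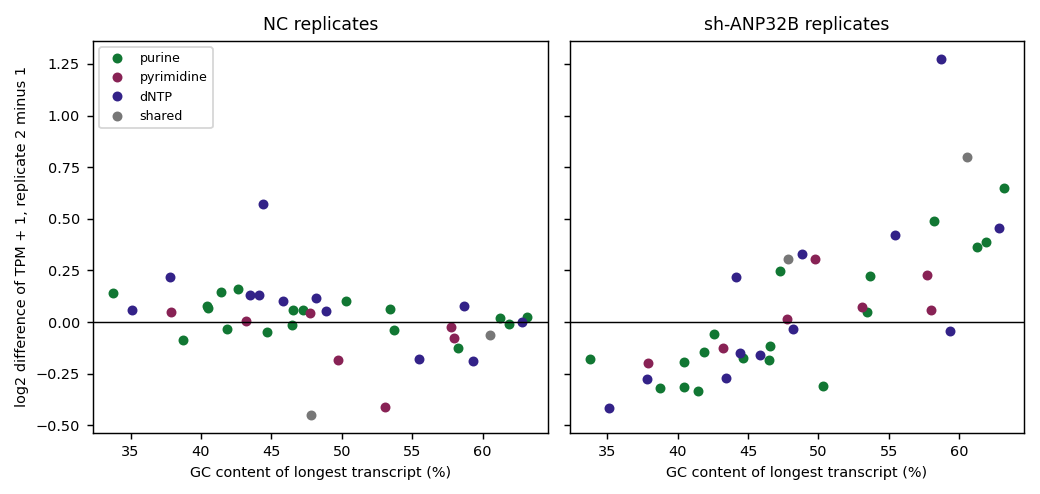
Log2 difference between replicate 2 and replicate 1 (TPM + 1; vertical axis) against the GC content of the longest transcript (%) for the 39 members, with NC on the left and sh-ANP32B on the right, coloured by arm. In sh-ANP32B the points rise with GC content (Spearman rho 0.83) up to NUDT1 at the top, while in NC they fall slightly (rho -0.48).

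Markers of S phase and proliferation moved with the members. Of 14 such genes (MKI67, PCNA, MCM2 to MCM7, TOP2A, CDC6, CDC45, GINS2, CLSPN and E2F1) 10 fell with a limma adjusted p under 0.05, against 1.18% of all genes, and all 14 passed the study's criterion as lower, against 6.55%. Their log2FCs ranged from -1.23 for CLSPN to -0.63 for MCM5, and none overlapped between the groups, where 21.4% of all genes lay lower without overlap. In bulk RNA, fewer cells in S phase and less RNA of these genes per cell cannot be told apart, and the part of cell cycle phase in the levels of the synthesis enzymes was not tested.

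Beyond the synthesis enzymes, genes that break down or take up nucleosides had both signs. Of 43 other genes of nucleotide metabolism 37 were analysed and 36 tested, of which 17 had a negative and 19 a positive log2FC, with a median of 0.09. Limma called 1 lower and 3 higher, where 1.18% of all genes were lower and 2.14% higher. Under the study's criterion 4 were lower and 9 higher, where 6.55% and 12.1% of all genes were. After correction for GC content limma called 3 lower and 10 higher, where 6.54% and 11.4% of all genes were. With a replicate left out the counts moved, as did those over all genes.

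Pyrimidine nucleosides are degraded by deaminases, phosphorylases and the dihydropyrimidine route, and 6 of the 7 genes tested of pyrimidine salvage and breakdown had a positive log2FC, with a median of 0.88. TYMP, which splits thymidine, had 23.6 and 17.1 TPM in the controls and 47.7 and 89.4 TPM after knockdown, and rose by 1.65 on the log2 scale (limma adjusted p 0.0454, SE 0.307). CDA, the cytidine deaminase that inactivates cytarabine, had 73.1 and 67.1 TPM (NC) against 113 and 155 TPM (sh-ANP32B), and rose by 0.91 on the log2 scale (limma adjusted p 0.0499, SE 0.179). After median-of-ratios scaling the limma adjusted p of TYMP and CDA was 0.0535 and 0.0661, so that both calls were lost. UPP1, a uridine phosphorylase, and DPYD and UPB1, of the first and last steps of the dihydropyrimidine route, had log2FCs of 0.59, 0.88 and 1.04 and passed the study's criterion, with limma adjusted p of 0.0819, 0.0771 and 0.0543. Of the 7 genes tested, 6 lay above NC without overlap and 1 below, where 33.2% and 21.4% of all genes did so.

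ADSS1, the muscle-type isozyme of ADSS2, had 26.9 and 21.1 TPM in the controls and 54.2 and 67.2 TPM after knockdown, and rose by 1.31 on the log2 scale (limma adjusted p 0.0348, SE 0.188). The AMP deaminases AMPD2 and AMPD3 passed the study's criterion as higher, with log2FCs of 0.58 and 0.56 and limma adjusted p of 0.0814 and 0.102. SLC29A1, the nucleoside transporter through which cytarabine enters cells, had 189 and 214 TPM (NC) against 111 and 115 TPM (sh-ANP32B), and fell by 0.82 on the log2 scale (limma adjusted p 0.0391, SE 0.130). CMPK2, AK6 and NME7 passed the study's criterion as lower, with log2FCs of -0.79, -0.69 and -0.68. SLC29A3 passed it as higher, at 0.57.

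**Figure D5:**
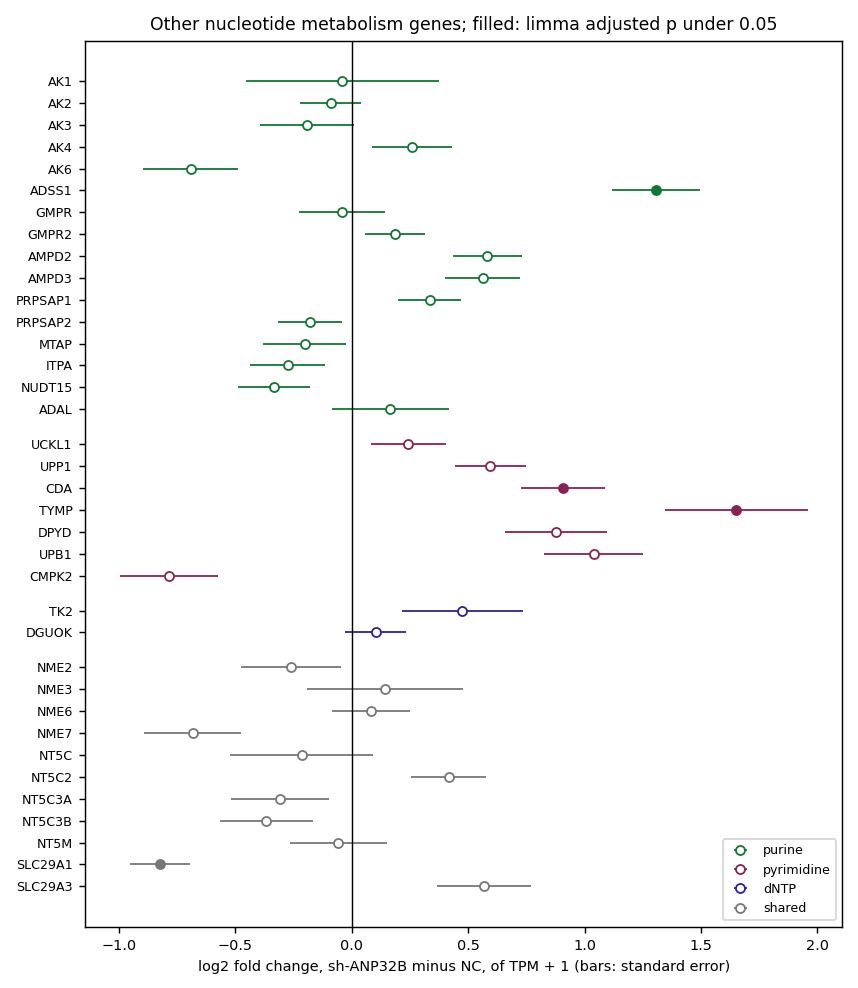
Log2 fold change (sh-ANP32B minus NC, TPM + 1; horizontal axis) of the 36 other nucleotide metabolism genes tested with their standard errors, coloured by arm; filled points have a limma adjusted p under 0.05. ADSS1, CDA and TYMP are filled on the right and SLC29A1 on the left, and TYMP lies farthest right at 1.65.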

How the data were processed

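RNA from 2 NC and 2 sh-ANP32B samples of Kasumi-1 cells was sequenced. Per the submitters' processing notes, the authors aligned reads to hg38 with HISAT2 2.0.5. The deposited values are TPM, identified from the values, which sum to between 997812 and 998314 in each sample. The quantifier, its annotation and any filter are not given in the sources used here. TPM keeps no depth, so no counting interval was computed. Groups and replicate numbers came from the sample titles. Of 18567 gene IDs 16986 were found in GENCODE v44 (hg38), which gave symbols, positions and GC content.

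The 16817 genes that reached 1 TPM in 2 or more samples entered as log2(TPM + 1) into a joint fit in limma 3.58.1 (R 4.3.3), with its abundance trend. P-values are two-sided and adjusted by Benjamini-Hochberg over all genes tested. Fold changes of low genes are understated on this scale. The count model named in the study's methods was left out, since it needs raw counts. Per-sample values were given for members that were called, past the study's criterion, in a pair, or with replicates over 1.5 times apart, and the remaining members are given as well. Other pathway genes were named only where called or past that criterion. GC correction subtracted a loess fit (span 0.75) of log2 value on GC content in each sample, over 15427 genes. The fit was tested on simulated data in 10 runs. Of the log2 changes of 1 put in, 5.8% were called, and of those of 2, 57.3%. Of the calls 4.54% were false. A gene that was not called can therefore still have changed. The members, gene lists and pairs were chosen with earlier results of these data known. Scripts used Python 3.11.15, pandas 2.3.3 and matplotlib 3.10.9.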

Additional observations from a re-analysis of the deposited data

How the results depend on the processing

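The number of members called lower (3 in the report) came to 8 with the replicate block, 5 with at least 1 TPM in every sample, 5 after median-of-ratios scaling, 19 after GC correction, 16 with the replicate block and GC correction together and 0 without the abundance trend, and ranged from 0 to 24 when each replicate was left out. CTPS1, RRM1 and TYMS were among the called members in each of these fits except that without the trend (limma adjusted p 0.114, 0.121 and 0.122). Without NC replicate 1 and without NC replicate 2 their calls were lost as well. The number called higher, 0 as reported (360 of 16817), was 2 after GC correction (1766 of 15427). It was 1 with the block and GC correction together (1440 of 15427), and it moved with a replicate left out. Under the study's criterion the lower members, 17 as reported, numbered 8 to 18 with a replicate left out. The higher ones, 0 as reported (12.1% of all genes), were 2 after GC correction and 2 with the block as well. Some also passed with a replicate left out. The share of all genes past that criterion was not computed for these other fits.

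Of the other pathway genes, 1 lower as reported, 3 were lower after GC correction and 3 with the block as well, 0 without the trend and 0 to 6 with a replicate left out. Those higher, 3 as reported, were 5 with the replicate block, 1 after median-of-ratios scaling, 10 after GC correction, 9 with the block as well, 0 without the trend and 2 to 11 with a replicate left out. The cause of these shifts was not tested.

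The median log2 fold change of the pyrimidine members (-0.41 in the report) was -0.50 after median-of-ratios scaling, -0.46 without mitochondrial genes, -0.38 after GC correction and -0.38 with the block as well, and -0.55 to -0.28 with a replicate left out. That of the dNTP members (-0.55 in the report) was -0.64 after median-of-ratios scaling and -0.63 to -0.39 with a replicate left out. The purine median stayed between -0.46 and -0.34 in all these fits. ANP32B kept its call except without the trend, at a log2FC of -3.04 (limma adjusted p 0.0929). With a replicate left out it ranged from -3.20 to -2.88.

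Signs turned for members near 0. UCK1 was -0.079 after median-of-ratios scaling, -0.036 without mitochondrial genes, -0.078 after GC correction and -0.078 with the block as well, and -0.027 to 0.051 with a replicate left out. RRM2B and DCK were 0.032 and 0.031 after GC correction and 0.032 and 0.031 with the block as well, and ranged from -0.22 to 0.20 and from -0.17 to 0.11 with a replicate left out. With a replicate left out ADSS2 ranged from -0.31 to 0.011, APRT from -0.51 to 0.13, ADK from -0.012 to 0.32, NUDT1 from -1.11 to 0.16, and the NME1 to NME4 difference from -0.43 to 0.059. Other members moved by over 1.5 times from their value with all 4 samples, without changing sign. They were NME4 (-0.89 to -0.091), GUK1 (0.049 to 0.41), SAMHD1 (0.28 to 0.85) and DCTPP1 (-0.74 to -0.32). DHODH (-0.52 to -0.11), IMPDH1 (0.29 to 0.68), ADA (-0.42 to -0.20) and UCK2 (-0.56 to -0.26) did so too. Members that stayed closer to that value also ranged, such as NME1 from -0.90 to -0.45 and TK1 from -1.04 to -0.58.

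Nothing states that equal replicate numbers were handled together, and across genes the Pearson r between same-numbered samples, each centred on its group, was -0.0925, so the numbers were not taken to pair the samples. A fit with the block has 1 residual degree of freedom and one without has 2. The pair CTPS1 to CTPS2 was not run. As TPM keeps no depth, the precision of single values cannot be given.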
